A study of Bos taurus with 6 samples.

Results

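Solute carriers for inorganic ions and metals were examined in cultured bovine granulosa cells (GC), the steroid-producing cells that line the ovarian follicle. The families were chosen with earlier results of these data known, and their members were then taken by symbol. All transcript clusters of the deposited table were taken whose gene symbol belongs to the SLC4, SLC8, SLC9, SLC12, SLC20, SLC24, SLC26, SLC30, SLC34, SLC39, SLC40 or SLC41 family, a transcript cluster being the array's unit for a gene. This gave 80 transcript clusters with 79 symbols, out of 26773 transcript clusters with 20074 symbols. SLC39A8 was the only symbol with more than 1 transcript cluster. SLC12A1 shares its table cell with a second name and therefore fell outside the rule, and its signals lay far below the background level in both groups.

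The cells were primary GC aspirated from small to medium follicles and pooled from several cows of unknown cycle stage, so a culture is not a single animal. They were grown on collagen for 9 days without serum, in a bicarbonate and HEPES buffered medium that contained transferrin, insulin and selenite and was supplemented with FSH, IGF-1 and androstenedione. These conditions were shared by both groups, which differed in the initial plating density, normal in 3 cultures and high in 3 cultures. Whether they also differed in the cell pools is not stated in the sources used here. One Bovine Gene 1.0 ST Array was hybridized per culture, and the authors deposited log2 signals made with the RMA procedure.

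Many ion carriers of these families use gradients that the sodium potassium pump sets up. The SLC4 and SLC9 families move bicarbonate and protons and thereby set the pH of the cytosol and of the secretory pathway, and SLC12 members carry chloride together with sodium or potassium and set cell volume. Zinc is moved out of the cytosol by the SLC30 family (ZnT) and into it by the SLC39 family (ZIP), iron leaves cells through SLC40A1, and phosphate enters through SLC20 and SLC34 members. In follicles, such carriers are part of fluid formation and of the handling of metals needed by metalloenzymes.

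Of the 80 carriers, 6 (7.5%) rose at high density and 2 (2.5%) fell, beside 3.97% and 3.51% of all transcript clusters. SLC30A10, SLC9A7, SLC4A7, SLC12A3, SLC30A2 and SLC39A13 rose, and SLC4A4 and SLC4A3 fell. The largest change was that of SLC30A10, with a fold change of 2.40, while the other 7 were between 1.53 and 1.73. Called here means a fold change above 1.5 with a p-value and an FDR below 0.05 in limma's moderated test of high minus normal density, adjusted over all 26773 transcript clusters. The 8 calls are 10% of the carriers, beside 7.49% of all transcript clusters, so the share was near that of the table. Of the transcript clusters with other SLC symbols, 36 of 257 were called, which is 14%.

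The median log2 change of the carriers was 0.02, the same as the median of all transcript clusters, 0.02. Changes ran from −0.74 for SLC4A4 to 1.26 for SLC30A10. At any fold change, 22 carriers passed the FDR threshold, which is 27.5%, beside 19.1% of all transcript clusters. They were 12 higher and 10 lower at high density (15.0% and 12.5%), beside 8.64% and 10.4% of all transcript clusters. This count of 22 was 11 without normal density replicate 2, 12 without normal density replicate 1 or 3 and 14 without high density replicate 3, and 10 carriers passed with any single culture removed. The 3 cultures of one density lay entirely on one side of those of the other for 38 carriers, 47.5%, beside 37.3% of all transcript clusters. Among the 14 carriers that passed the FDR threshold but were not called, the changes were between 0.27 and 0.48 in size on the log2 scale. Of these 14, SLC9A9 and SLC39A6 passed the FDR threshold with any single culture removed, and the other 12 missed it in at least 1 such fit. The called carrier nearest to the fold change threshold was SLC39A13 with 0.61, and the nearest one outside was SLC24A1 with 0.48 in size.

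The other 58 carriers did not pass the FDR threshold. For all 58 the 95% interval of the log2 difference, which is not adjusted for the number of genes, lay within 1.5-fold in both directions. The mean signal was above the background level for 26 of them. This level is the 95th percentile of the signals of the 82 reporter control rows, a log2 signal of 4.62, and changes of signals near or below it are compressed. In all, 41 of the 80 carriers had a mean over the 6 arrays above it. Of these 41, 6 were called and 15 passed the FDR threshold, which is 14.6% and 36.6%, beside 12% and 31.1% of all transcript clusters with a mean above that level.

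**Figure D1:**
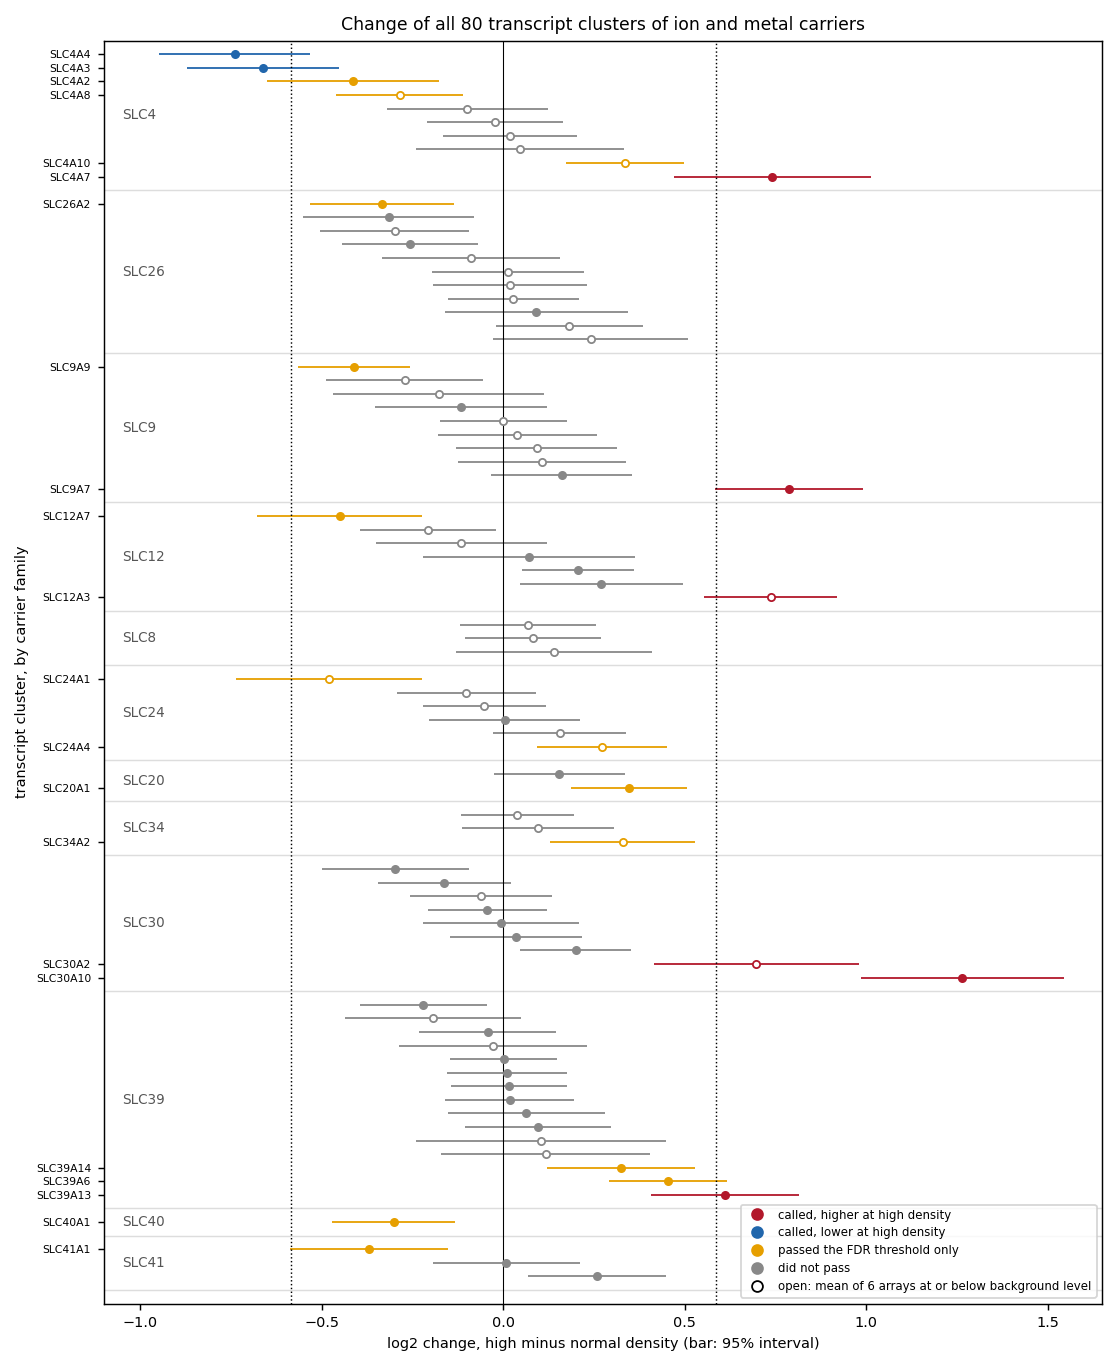
Log2 change at high against normal density (x axis) for each of the 80 carrier transcript clusters, grouped by family (y axis), with its 95% interval as a bar and a name for those past the FDR threshold. Dotted lines mark a fold change of 1.5 and open circles a mean signal at or below the background level; 6 carriers lie to the right of the threshold as called, 2 to the left, and most lie between.

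The quality of the cultures bears on these values in a few ways. The arrays had medians between 4.34 and 4.43. The median SD over the carriers was 0.07 at normal and 0.11 at high density (n = 3 each), and high density replicate 2 held the highest or lowest signal of its group for 69 of the 80 carriers. Without it the same number of carriers, 8, was called. Of 10 granulosa cell markers, FSHR, CYP19A1, INHA, INHBA, FOXL2 and FST fell and the other 4, GATA4 and NR5A1 among them, were not called, and none had both group means at or below the background level. All 6 leukocyte markers, 5 of 6 endothelial markers and all 5 red cell markers found had both group means at or below the background level. The same held for 4 of 6 surface epithelium markers. The other surface epithelium markers, CDH1 and MSLN, had means above it in both groups (5.73 and 5.89, 5.61 and 5.75) and were not called. Of 6 theca cell markers, INSL3, COL1A1 and ACTA2 were up-regulated, with log2 changes of 1.82, 1.15 and 1.15, and the summed signal of the list was between 8.74 and 8.85 at normal and between 10.02 and 10.21 at high density on the log2 scale. The theca enzyme CYP17A1 had a signal of 2.93 and 2.92 in the groups, below the background level. The part of other cells in the carrier changes was not tested, and in RNA from whole cultures fewer cells of a type and less RNA per cell cannot be told apart.

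Of the bicarbonate carriers, the acid-base transporters of SLC4 changed in opposite directions. This family had 3 of the 8 called carriers among its 10 members, while 7.49% of all transcript clusters were called. SLC4A4 encodes an electrogenic sodium bicarbonate cotransporter. Its log2 signals (transcript cluster 12870174) were 5.52, 5.32 and 5.40 at normal density and 4.60, 4.80 and 4.62 at high density. All high density cultures lay below all normal density cultures, and replicates 1 and 3 of high density were at the background level. The log2 change was −0.74 (standard error, SE, 0.09, adjusted p = 0.00138 by limma).

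SLC4A3 is a chloride bicarbonate exchanger known from heart and brain. It had log2 signals of 6.28, 6.19 and 6.11 at normal and 5.66, 5.42 and 5.51 at high density (transcript cluster 12777931), again without overlap and all above the background level. Its log2 change was −0.66 (SE 0.09, adjusted p = 0.00233 by limma). SLC4A2, the widely expressed exchanger of the same kind, had group means of 7.06 ± 0.07 and 6.65 ± 0.18 (SD, n = 3). This log2 difference of −0.41 passed the FDR threshold (limma's adjusted p = 0.0287) but not that of the fold change.

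SLC4A7 encodes an electroneutral sodium bicarbonate cotransporter, which loads cells with base. In contrast to SLC4A4 it rose, from log2 signals of 6.72, 6.79 and 6.55 at normal to 7.37, 7.65 and 7.26 at high density (transcript cluster 12798802). The highest of these was that of high density replicate 2. The log2 change was 0.74 (SE 0.12, adjusted p = 0.0045 by limma). Over the fits that omit 1 culture it ranged from 0.63 to 0.82. So the electrogenic and the electroneutral cotransporter moved apart, both with cultures that did not overlap.

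The remaining SLC4 members had signals below the background level. Those of the sodium-driven bicarbonate transporters SLC4A8 and SLC4A10 differed by −0.28 and 0.34 on the log2 scale and passed the FDR threshold only. SLC4A1, the band 3 anion exchanger of red cells, had means of 3.05 and 2.96 and did not pass (limma's adjusted p = 0.529).

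None of the 11 SLC26 anion exchangers was called. SLC26A2 imports sulfate for the sulfation of proteoglycans. It had means of 7.19 ± 0.04 and 6.85 ± 0.13 (SD, n = 3), a log2 difference of −0.33 that passed the FDR threshold (limma's adjusted p = 0.0325). The other 10 members did not pass, with log2 differences between −0.32 for SLC26A11 and 0.24 for SLC26A9. Over both families, 2 of 21 bicarbonate and anion carriers were higher and 5 lower past the FDR threshold. Of all transcript clusters, 8.64% were higher and 10.4% lower past it. With all array medians set equal, 2 of the 21 carriers were higher and 8 lower. Without any one of the normal density cultures 1 was higher and 2 were lower, and 2 were higher and 2 lower without high density replicate 1 or with the methods' t-test.

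**Figure D2:**
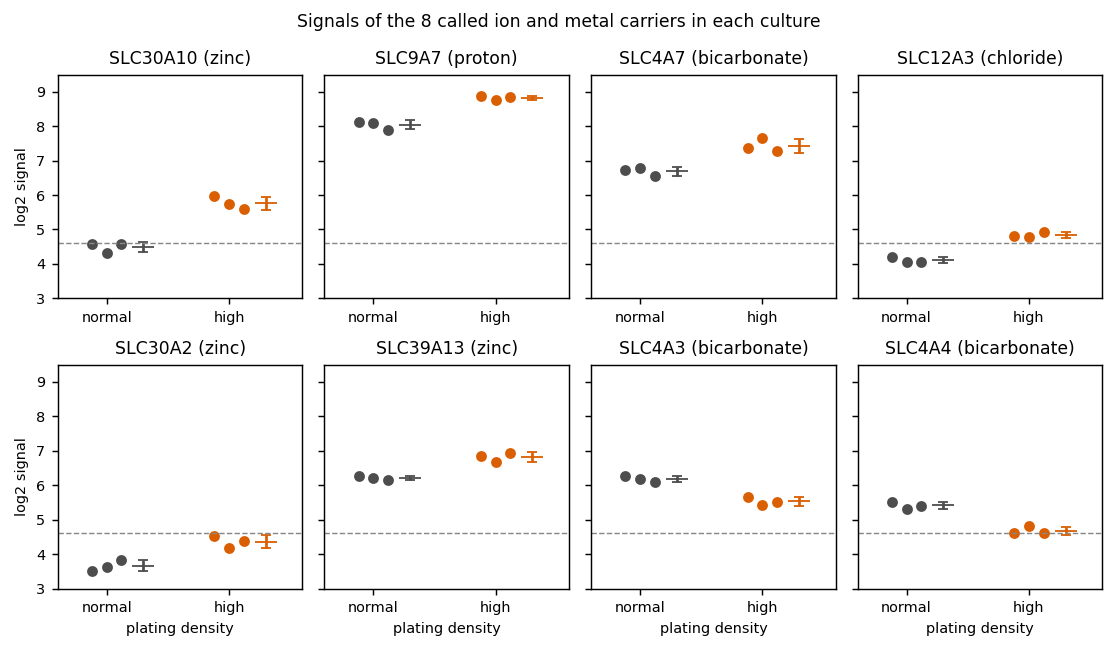
Log2 signals (y axis) of the 8 called carriers in each culture (points) at normal and high plating density, with the mean and SD of 3 cultures beside them and the background level of 4.62 as a dashed line. In each panel the groups do not overlap, and for SLC30A2 both groups lie below the dashed line.

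Carbonic anhydrases and the proton-coupled lactate carriers handle the substrates of these transporters. Of 24 such genes of acid and bicarbonate handling found on the array, 5 were up-regulated, 2 down-regulated and 17 not called. Of all transcript clusters, 3.97% were called up and 3.51% down. Like the lists below, these genes were chosen with earlier results of the data known, so the counts describe the listed genes only. CA9, a membrane-bound carbonic anhydrase facing the outside of cells and known to be induced by hypoxia, had log2 signals of 4.08, 3.62 and 3.73 at normal and 5.90, 5.59 and 5.50 at high density. All normal density signals were below the background level and all high density signals above it. The log2 change was 1.85 (SE 0.15, adjusted p = 2.44e-04 by limma). The cytosolic enzyme CA2 rose by 1.68 on the log2 scale (limma's adjusted p = 3.49e-05), from 4.54 ± 0.09 to 6.22 ± 0.10 (SD, n = 3). Its normal density mean was below the background level.

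SLC16A3, which exports lactate together with protons, rose from 7.71 ± 0.12 to 9.24 ± 0.13 (SD, n = 3), a log2 change of 1.54. The cytosolic CA13 changed by 1.17 from a mean below the background level, and CA10, which lacks enzyme activity, by 1.11. The 2 genes that fell were CA14, a membrane-bound enzyme, with a log2 change of −1.30, and CA5B, a mitochondrial enzyme, with −0.86. The high density mean of CA14 was below the background level. The scaffolds SLC9A3R1 and SLC9A3R2, which bind sodium proton exchangers, differed by −0.17 and 0.41 and were not called, although the latter passed the FDR threshold.

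Of the 10 sodium proton exchangers of the SLC9 family 1 was called, beside 7.49% of all transcript clusters. SLC9A7 resides in the trans-Golgi network, where it exchanges protons for sodium or potassium. Its log2 signals (transcript cluster 12908736) were 8.13, 8.10 and 7.89 at normal and 8.86, 8.77 and 8.85 at high density. The high density cultures were tightly grouped and all above the normal density cultures. The log2 change was 0.79 (SE 0.09, adjusted p = 9.55e-04 by limma).

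Another exchanger of intracellular compartments, the endosomal SLC9A9, was lower at high density, with means of 6.84 ± 0.04 and 6.43 ± 0.04 (SD, n = 3). The log2 difference of −0.41 (limma's adjusted p = 0.00494) passed the FDR threshold with any single culture left out but did not reach that of the fold change.

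Among 7 chloride cotransporters of SLC12, 1 was called, beside 7.49% of all transcript clusters. This was SLC12A3, the thiazide-sensitive sodium chloride cotransporter best known from the kidney. The log2 signals (transcript cluster 12749655) were 4.20, 4.06 and 4.06 at normal density, all below the background level, and 4.81, 4.79 and 4.93 at high density, just above it. The log2 change of 0.74 (SE 0.08, adjusted p = 7.96e-04 by limma) is thus limited by that level.

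The potassium chloride cotransporter SLC12A7 was lower at high density, with means of 6.87 ± 0.09 and 6.42 ± 0.15 (SD, n = 3). Its log2 difference of −0.45 passed the FDR threshold only (limma's adjusted p = 0.0174). SLC12A2, the sodium potassium chloride cotransporter, differed by 0.27 and missed the FDR threshold (limma's adjusted p = 0.095).

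Of 14 regulators of these cotransporters and chloride channels found on the array, 3 were up-regulated and none down-regulated by the thresholds used. Beside these stand 3.97% and 3.51% of all transcript clusters. STK39, a kinase that phosphorylates SLC12 cotransporters, had log2 signals of 4.73, 4.64 and 4.74 at normal and 5.53, 5.56 and 5.45 at high density. These groups were well apart, with a log2 change of 0.81 (SE 0.07, adjusted p = 3.38e-04 by limma). OXSR1, the closely related kinase, differed by 0.09 and was not called. CLCN6 and CLCN4, chloride proton exchangers of endosomes, rose by 0.91 and 0.63 on the log2 scale. Without high density replicate 1, CLCN4 was not called (0.57).

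No calcium exchanger of SLC8 or SLC24 was called. All 3 SLC8 members, the sodium calcium exchangers of the cell surface, had both means below the background level and log2 differences between 0.07 and 0.14. SLC24A1, known from rod photoreceptors, differed by −0.48 and SLC24A4 by 0.27, and both passed the FDR threshold with signals below the background level. SLC24A6, now named SLC8B1 in RefSeq, exchanges sodium for calcium in mitochondria and was the only one of the 9 with a mean above the background level. Its means were 5.85 ± 0.08 and 5.86 ± 0.13 (SD, n = 3), and the 95% interval of the log2 difference was −0.20 to 0.21. Of 7 calcium pumps 1 was called, beside 7.49% of all transcript clusters. This was the surface pump ATP2B3, with a log2 change of 0.86 between means that were both below the background level. ATP2B1, with means of 8.38 and 7.99, differed by −0.39 and passed the FDR threshold only (limma's adjusted p = 0.00741). Past that threshold, 2 of the 7 pumps were higher and 1 lower, beside 8.64% and 10.4% of all transcript clusters.

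None of the 5 phosphate carriers was called. SLC20A1, a widely expressed importer of phosphate, had log2 signals of 7.76, 7.70 and 7.80 at normal and 8.12, 8.13 and 8.04 at high density. The groups did not overlap, and the log2 difference of 0.35 (SE 0.07, adjusted p = 0.0124 by limma) passed the FDR threshold only. SLC20A2, its paralog, differed by 0.15 (limma's adjusted p = 0.218). The epithelial carriers SLC34A1, SLC34A2 and SLC34A3 had signals below the background level, and SLC34A2 alone of them passed the FDR threshold, with 0.33.

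Of 9 other genes of phosphate handling, 4 were up-regulated and none down-regulated by the thresholds used, beside 3.97% and 3.51% of all transcript clusters. STC2, a secreted glycoprotein of the stanniocalcin family that affects calcium and phosphate handling, had log2 signals of 3.93, 4.13 and 4.18 at normal density and 6.61, 6.69 and 6.60 at high density. Its log2 change of 2.55 (SE 0.09, adjusted p = 1.07e-05 by limma) was the largest of all genes of ion handling examined here. All normal density signals of STC2 were below the background level. ALPL, the alkaline phosphatase that frees phosphate outside of cells, rose from 6.93 ± 0.28 to 9.24 ± 0.21 (SD, n = 3), a log2 change of 2.31 (limma's adjusted p = 1.36e-04).

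FGF23, a hormone that lowers phosphate uptake in the kidney, rose by 1.31 from a signal below the background level. ENPP1, which makes pyrophosphate at the cell surface, rose by 0.66. STC1, the paralog of STC2, had means of 10.25 and 10.53 and a log2 difference of 0.28, which passed the FDR threshold but was not called.

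The 24 transcript clusters of zinc and related metal carriers included 3 called ones, all higher at high density, beside 3.97% of all transcript clusters. Past the FDR threshold were 5, all higher, beside 8.64% higher and 10.4% lower of all transcript clusters. With all array medians set equal, however, 4 of these carriers were higher and 2 lower. Without high density replicate 2, after a filter on low signals and with trended robust variances, 1 or 2 were also lower. SLC30A10 belongs to the zinc exporter family by sequence and is known as an exporter of manganese. Its log2 signals (transcript cluster 12739086) were 4.59, 4.33 and 4.58 at normal and 5.96, 5.74 and 5.59 at high density. The normal density signals were all below the background level and the high density signals all above it. The log2 change was 1.26 (SE 0.12, adjusted p = 4.93e-04 by limma), with a range of 1.17 to 1.35 over the fits that omit 1 culture.

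SLC30A2, which loads zinc into vesicles and is needed for zinc secretion into milk, had means of 3.66 ± 0.16 and 4.36 ± 0.18 (SD, n = 3). The log2 change of 0.70 (SE 0.12, adjusted p = 0.00707 by limma) lay wholly below the background level, and with the methods' t-test in place of limma it was not called (adjusted p = 0.0555). The other 7 exporters did not pass the FDR threshold. They included SLC30A1, the zinc exporter of the cell surface, with means of 6.91 and 6.94 and a 95% interval of the log2 difference from −0.15 to 0.22. SLC30A6, an exporter into the Golgi, differed by −0.16 from a mean of 9.33 at normal density (limma's adjusted p = 0.205).

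Of the 15 transcript clusters of zinc importers, 1 was called, beside 7.49% of all transcript clusters. This was SLC39A13, which encodes an intracellular carrier whose loss causes a disorder of connective tissue. The log2 signals (transcript cluster 12729915) were 6.26, 6.22 and 6.14 at normal and 6.86, 6.67 and 6.93 at high density, with all values above the background level and no overlap. The log2 change was 0.61 (SE 0.09, adjusted p = 0.00296 by limma). It was close to the threshold and was not called without normal density replicate 3 (0.58), without high density replicate 3 (0.56) or with all array medians set equal (0.57).

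SLC39A6, an importer first described as an estrogen-regulated gene, had log2 signals of 8.99, 8.94 and 8.92 at normal and 9.37, 9.48 and 9.36 at high density. The groups were separate, and the log2 difference of 0.45 (SE 0.07, adjusted p = 0.00399 by limma) passed the FDR threshold with any single culture left out but remained under that of the fold change. SLC39A14, which takes up manganese, iron and zinc, differed by 0.33 and passed the FDR threshold only (limma's adjusted p = 0.039). SLC39A8, an importer of zinc and manganese, is measured by 2 transcript clusters, with log2 differences of −0.04 (12870641) and 0.00087 (12869667), neither of which passed. The other 10 importers had log2 differences between −0.22 and 0.12 and did not pass.

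Metallothioneins bind zinc in the cytosol, and MTF1 is the zinc-sensing factor that drives them. Of 7 other genes of zinc handling found on the array, which also include TMEM163, 2 were up-regulated and none down-regulated by the thresholds used. The shares over all transcript clusters were 3.97% up and 3.51% down. MT1E rose by 1.32 on the log2 scale (limma's adjusted p = 0.00117), from 4.81 ± 0.18 to 6.13 ± 0.27 (SD, n = 3). A second transcript cluster with this symbol had both means below the background level and was not called. MT2A rose by 0.74 (limma's adjusted p = 0.00259), from 8.44 ± 0.13 to 9.17 ± 0.14 (SD, n = 3). MT1A differed by 0.48 and passed the FDR threshold only. Metallothionein genes are closely alike in sequence, so their probes may share signal. MTF1 itself was lower by 0.38 on the log2 scale, which passed the FDR threshold only (limma's adjusted p = 0.00892).

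**Figure D3:**
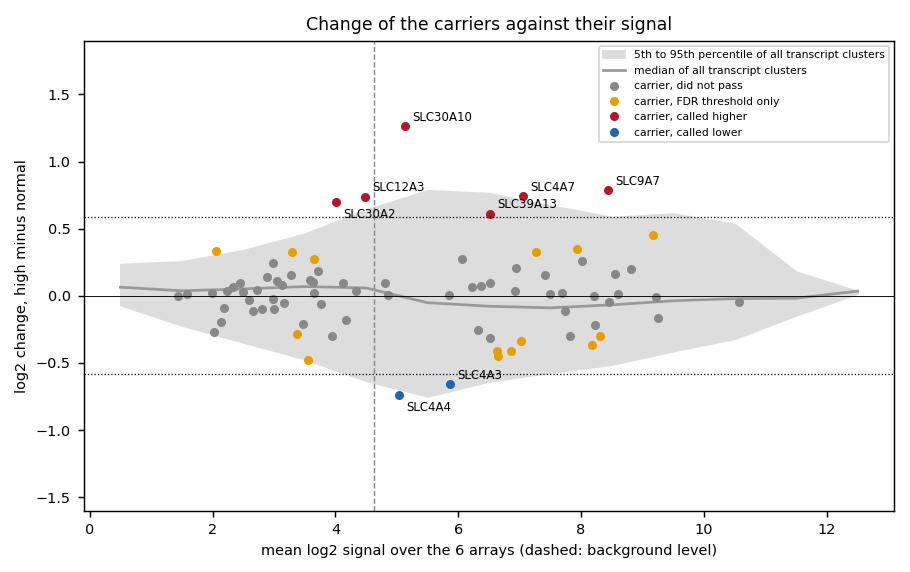
Log2 change at high against normal density (y axis) of the 80 carriers against their mean log2 signal over the 6 arrays (x axis), with the 5th to 95th percentile of all transcript clusters in grey and the background level as a dashed line. SLC30A10 stands highest at 1.26, SLC4A4 lowest at −0.74, and most carriers lie inside the grey band.

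SLC40A1, ferroportin, is the known exporter of iron from cells. It had log2 signals of 8.55, 8.38 and 8.48 at normal and 8.14, 8.18 and 8.17 at high density. The high density cultures were lower without overlap, by 0.30 on the log2 scale (SE 0.07, adjusted p = 0.0263 by limma), which passed the FDR threshold but not that of the fold change. It missed the FDR threshold with the replicate block (limma's adjusted p = 0.0715) and without normal density replicate 1 or 3 or high density replicate 1 or 3 (limma's adjusted p between 0.0741 and 0.103). Of 24 other genes of iron handling, 2 were up-regulated and 1 down-regulated, beside 3.97% and 3.51% of all transcript clusters. TF, which encodes transferrin, rose from 4.85 ± 0.06 to 6.14 ± 0.14 (SD, n = 3), a log2 change of 1.29 (limma's adjusted p = 1.30e-04). TFR2, a receptor for transferrin, rose by 0.67 from a signal below the background level.

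NCOA4, which delivers ferritin to lysosomes for the release of iron, fell by 0.60 on the log2 scale (limma's adjusted p = 0.00175), close to the fold change threshold. Without normal density replicate 2 (−0.57) or high density replicate 1 (−0.54), or after a second quantile normalization (−0.55), it was not called. The main receptor for transferrin, TFRC, had means of 9.74 and 9.80 and did not pass (limma's adjusted p = 0.655), and the importer SLC11A2 did not pass either.

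Of the 3 magnesium carriers none was called. SLC41A1, which moves magnesium out of cells in exchange for sodium, had log2 signals of 8.38, 8.41 and 8.28 at normal and 8.11, 7.83 and 8.03 at high density. The lowest value was that of high density replicate 2. The log2 difference of −0.37 (SE 0.09, adjusted p = 0.031 by limma) passed the FDR threshold only. SLC41A2 differed by 0.26 in the other direction and missed the FDR threshold (limma's adjusted p = 0.0655), and SLC41A3 had means of 4.84 and 4.85.

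CNNM2, a membrane protein needed for magnesium balance, was the only call among 11 other genes of magnesium handling, beside 7.49% of all transcript clusters. Its log2 signals were 6.24, 6.36 and 6.30 at normal and 5.09, 5.20 and 5.25 at high density, with a log2 change of −1.12 (SE 0.08, adjusted p = 1.19e-04 by limma). The groups were far apart relative to their spread. Its paralogs CNNM1, CNNM3 and CNNM4 were not called, CNNM4 passing the FDR threshold only with 0.32, and the magnesium channel TRPM7 had a log2 difference of −0.03. Past the FDR threshold, 1 of the 11 was higher and 3 lower, CNNM2 included, beside 8.64% and 10.4% of all transcript clusters.

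The sodium potassium pump, which maintains gradients used by many of these carriers, had 1 called gene among 14 found, beside 7.49% of all transcript clusters. This was ATP1B2, a beta subunit, with log2 signals of 4.97, 5.05 and 4.94 at normal and 6.31, 6.12 and 6.08 at high density. All values were above the background level, and the log2 change was 1.18 (SE 0.08, adjusted p = 1.45e-04 by limma). At any fold change, 5 genes of this list passed the FDR threshold, ATP1B2 included, all higher at high density. Of these, ATP1B1 and FXYD2 missed it in at least 1 fit that omits 1 culture (limma's adjusted p up to 0.0567 and 0.0906). Of all 110 listed genes of ion handling, 31 were higher and 12 lower past the FDR threshold. Of all transcript clusters, 8.64% were higher and 10.4% lower past it.

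Over all 8 lists of genes that handle the same ions, 110 of 114 symbols were found, and 18 were up-regulated and 4 down-regulated. The 22 calls are 20% of those found, beside 7.49% of all transcript clusters and 12% of those with a mean above the background level. Both group means were at or below that level for 31 of the 110 genes and for 13696 of the 26773 transcript clusters. These lists were chosen from general knowledge with earlier results of the data known, so their share is a description of the listed genes and no measure of a common response.

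**Figure D4:**
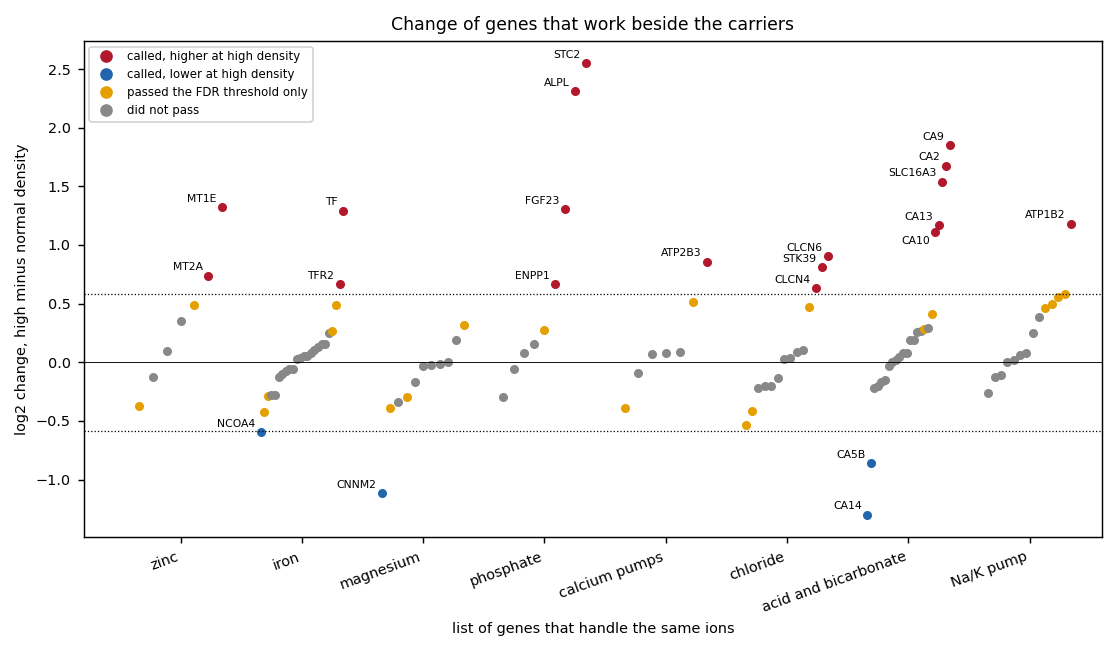
Log2 change at high against normal density (y axis) of 110 genes that work beside the carriers, in 8 lists by ion (x axis); each point is a gene, called genes are named, and dotted lines mark a fold change of 1.5. STC2 is highest at 2.55 and CA14 lowest at −1.30.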

How the data were processed

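RNA from 6 cultures of bovine GC was hybridized to 1 array each. The deposited log2 signals were made by the authors in Expression Console with the RMA procedure (background reduction, normalization and gene-level summary), and the submitters' processing notes also name Transcriptome Analysis Console 3.0. RMA fits the arrays to a common distribution, so only changes relative to the other genes are measured. No further normalization was applied. The annotation release is not given in the sources used here. The table holds 0 columns of other samples. Spaces around symbols were removed before the symbols were matched. By accession, symbol or synonym, 78 of the 80 carriers matched the RefSeq gene table (assembly ARS-UCD2.0), which was used for names only.

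The densities were compared with lmFit and eBayes of limma 3.58.1, run under R 4.3.3 without covariates. P-values were adjusted by Benjamini-Hochberg across the 26773 transcript clusters, and the thresholds were those of the methods. Errors are the SD over cultures or limma's standard error. The methods describe the 6 samples as GC preparations, each a pool over many ovaries. The sources used here do not say whether a pool was plated at both densities, and p-values measure the spread between these preparations. The number of arrays limits the precision. An exact permutation test of 3 against 3 cultures cannot give a p below 0.1.

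Carriers and lists were chosen with earlier results of these data known. All called carriers were named, as were the one of highest mean signal among those not called in each family and all called genes of the lists, except that a few genes are not reported here. The carriers passing the FDR threshold and other genes named were chosen after their values were seen. For listed genes with several transcript clusters, the one with the highest mean was used. Alternatives were the methods' t-test, eBayes with a trend and robust variances, the replicate block, equal array medians, quantile normalization of the deposited signals, removal of low signals, an FDR of 0.01, 1 transcript cluster per symbol and each culture left out. The scripts were tested on simulated data. Figures were drawn with matplotlib 3.10.9.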

Additional observations from a re-analysis of the deposited data

How the results depend on the processing

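The number of called carriers was 7 or 8 in every alternative tried, with 5 or 6 up-regulated and 2 down-regulated, the fits that omit 1 culture included (7 to 8). With the replicate number as a block 8 carriers were called, and no call of a carrier changed. Same-numbered cultures did not deviate together (correlations of 0.05, −0.05 and −0.04 over all transcript clusters), so the numbers were not treated as pairs. The calls lost were those of SLC39A13, with all array medians set equal (log2 change 0.57) and without normal or high density replicate 3 (0.58 and 0.56), and of SLC30A2 with the methods' t-test, while the filter on low signals removed SLC30A2. The number of listed genes of ion handling called was 21 to 26 over the fits that omit 1 culture, and 26 without high density replicate 2.

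The count of carriers past the FDR threshold at any fold change was less stable than the calls. It was added after the data were seen. It was 22, but 14 with the methods' t-test, 10 at an FDR of 0.01, 15 with the replicate block and 11 to 24 over the fits that omit 1 culture. The fits without 1 culture have fewer samples, and 10 of the 22 passed in all 6 of them. Among these fits the count was 11 or 12 where a normal density culture was omitted, 14 to 15 where high density replicate 3 or 1 was, and 24 where high density replicate 2 was.

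Differences near 0 changed sign. That of SLC24A6 (transcript cluster 12746149) was −0.0392 with all array medians set equal and −0.0371 to 0.0777 over the fits that omit 1 culture. That of SLC34A1 was −0.0052 with shifted medians and −0.0068 after a second quantile normalization. Shifting the medians moved the median change of all transcript clusters from 0.02 to −0.03. For 39 of the 80 carriers the mean signal was at or below the background level, which limits the changes that could be measured.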
